A study of Homo sapiens with 5 samples.

Results

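Olfactory receptor genes lie in clusters scattered over the human chromosomes, and 21 bins of 1 Mb that hold such clusters were followed here through whole-genome contact maps of RMG1 cells, an established line of ovarian clear cell carcinoma. The bins were chosen by position on the hg19 build, not by their contacts. They are 21 of 2635 autosomal bins, lie on 8 chromosomes and form 12 clusters, named here by chromosome band. On chromosome 11 lie 11p15 (chr11:4000001-7000000), 11cen on both sides of the centromere (chr11:48000001-49000000 and chr11:55000001-60000000) and 11q24 (chr11:123000001-125000000). The others are 1q23 (chr1:158000001-159000000), 1q44 (chr1:247000001-249000000), 6p22 (chr6:29000001-30000000), 7q35 (chr7:143000001-144000000), 9q31 (chr9:107000001-108000000), 9q33 (chr9:125000001-126000000), 12q13 (chr12:55000001-56000000), 14q11 (chr14:20000001-21000000) and 17p13 (chr17:3000001-4000000). In clusters of several bins, a bin is called by its start or, at 1q44 and 11q24, as the proximal or distal one. The receptor bins make 151 bin pairs between different chromosomes (trans pairs), 110 of them with 1 of the 11 bins of chromosome 11.

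In situ Hi-C, which counts ligations between pieces of DNA that lie close together in the nucleus, was measured in 5 libraries of 3 groups. The ARID1A knockout group (KO, made by CRISPR, CAPH2 not targeted) and the CAPH2 knockdown group (KD, made by a hairpin RNA, ARID1A intact) have 2 libraries each, and the control, with a control hairpin RNA and both genes intact, has 1. ARID1A belongs to the chromatin remodelling complex BAF, and CAPH2 (NCAPH2) to condensin II, which compacts chromosomes and keeps chromosome territories apart. The labels do not say whether the KO cells are 1 clone or whether libraries of 1 group came from separate cultures. Every p-value therefore rests on how far these libraries spread, and that spread may be purely technical. The labels name a hairpin for control and KD cells and none for KO cells, so a difference between KO and control cannot be told apart from the difference between CRISPR and a control hairpin. The loss of ARID1A or of CAPH2 was not checked with these matrices, which hold contacts and no expression.

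Each olfactory sensory neuron expresses a single receptor allele, and most other tissues keep the receptor genes silent. In mouse olfactory neurons the silent clusters of many chromosomes come together in heterochromatic bodies, with enhancer hubs at the expressed gene, and contacts between receptor clusters of different chromosomes are a hallmark of those cells. In other cell types the clusters mostly belong to the B compartment, the inactive part of the genome, whose regions touch each other more often than they touch the active A compartment.

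A promoter is shown for 1 class I and 2 class II receptor genes, on 3 chromosomes, as examples of the low GC content of receptor promoters. They were picked among promoters with a match to the motif below, which most receptor promoters lack. RefSeq (GRCh38.p14, with no coordinates carried over to hg19) lists 392 protein-coding receptor genes, 344 of them on the 8 chromosomes and 171 on chromosome 11. A promoter of 300 bases was given for 314 of the 392 genes (326 promoters). Positions beside the sequences are on GRCh38.p14 and do not match the hg19 bounds of the bins. The band beside a gene names its band, not a bin it was assigned to. The letters TAATTA, the core of homeodomain motifs and its own reverse complement, so that both strands are searched at once, are set in capitals.
OR52B4 (11p15, class I; chr11:4368337-4368636, minus strand): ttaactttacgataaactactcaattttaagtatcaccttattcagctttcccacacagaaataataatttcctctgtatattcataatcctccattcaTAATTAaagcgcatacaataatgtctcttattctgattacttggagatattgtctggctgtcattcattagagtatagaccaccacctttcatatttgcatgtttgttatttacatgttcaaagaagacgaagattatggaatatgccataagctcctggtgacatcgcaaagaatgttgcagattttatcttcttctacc
OR9K2 (12q13, class II; chr12:55126156-55126455, plus strand): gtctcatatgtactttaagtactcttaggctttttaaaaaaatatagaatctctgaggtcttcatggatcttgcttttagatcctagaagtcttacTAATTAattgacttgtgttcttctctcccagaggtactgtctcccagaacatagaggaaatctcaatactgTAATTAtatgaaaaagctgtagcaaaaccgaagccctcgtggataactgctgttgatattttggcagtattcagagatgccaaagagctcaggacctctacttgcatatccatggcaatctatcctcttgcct
OR4K1 (14q11, class II; chr14:19930667-19930966, plus strand): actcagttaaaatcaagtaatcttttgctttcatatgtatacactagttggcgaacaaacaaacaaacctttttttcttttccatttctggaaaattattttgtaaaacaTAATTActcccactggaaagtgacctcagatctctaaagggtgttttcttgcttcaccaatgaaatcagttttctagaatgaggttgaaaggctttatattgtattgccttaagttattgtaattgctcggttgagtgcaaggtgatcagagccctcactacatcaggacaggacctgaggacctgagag
Those promoters have a GC content of 33%, 38.3% and 36.7% and hold 1, 2 and 1 match. They are typical in base composition: the median GC content was 37.7% over the 326 receptor promoters, against 58.7% over all 35116 promoters of the table. TAATTA was in 22.4% of receptor promoters (73 of 326) and in 4.84% of all promoters. On the chromosomes with receptor bins the share ran between 0 of 20 promoters on chromosome 9 and 27.3% of 11 promoters on chromosome 17. The sets differ in base composition, whose part in these shares was not tested, and a match is a description, not a binding site.

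The contacts behind these values were recovered from the balanced signal, as described under the processing. The libraries held 30682060 and 31710955 contacts (KO), 54250096 and 83078301 contacts (KD) and 46683906 contacts (control) between autosomal bins, or 2.02 and 2.03 (KO), 3.89 and 5.92 (KD) and 3.17 (control) per trans bin pair. Among the 151 trans pairs of receptor bins, 42 and 47 pairs (KO), 16 and 10 pairs (KD) and 18 pairs (control) had no contact at all. That is 27.8% and 31.1% (KO), 10.6% and 6.62% (KD) and 11.9% (control) of them. Of all trans pairs, 22.2% and 22.6% (KO), 7.22% and 2.94% (KD) and 10.2% (control) had none, a lower share in every library. A single receptor bin pair was therefore never well measured, and values are mostly given for sums over pairs. A pair of clusters of 1 bin each is still a single bin pair. The contact total of a receptor bin lay between 0.315 and 1.16 times the median autosomal bin of its library.

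Receptor bins of different chromosomes touched each other more often than the totals of the bins predict, in KO, KD and control cells alike. The expectation for a pair of bins was the product of their trans totals, and the set value is log2 of observed over expected signal summed over the 151 pairs. It was 0.27 and 0.24 in KO libraries, 0.23 and 0.27 in KD libraries and 0.21 in the control library, a mean of 1.18-fold ± 0.022 (SD, n = 5 libraries). All 5 libraries were above 0. Flank bins, 115 bins that start 5 to 10 Mb from a receptor bin on the same chromosomes, met the same receptor partners at −0.047 and −0.021 in KO libraries, −0.050 and −0.029 in KD libraries and −0.098 in the control library. The excess thus stopped short of the neighbourhood: no flank value reached any receptor value.

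Set against their flanks, the receptor bins were 0.32 and 0.26 higher (log2) in KO libraries, 0.28 and 0.30 higher in KD libraries and 0.31 higher in the control library. The mean over the 5 libraries was 0.29 ± 0.023 (SD, n = 5), or 1.22-fold. An exact two-sided sign-flip permutation test over the libraries gave p = 0.0625, the smallest p that 5 libraries can give, so this design cannot reach 0.05. Against all other autosomal bins in place of the flanks the excess was 0.25. In recovered contacts, the 151 pairs held 223 and 213 contacts in KO libraries, 480 and 748 in KD libraries and 376 in the control library. The totals of the bins predicted 189 and 187 (KO), 419 and 629 (KD) and 333 (control). The fold over that expectation had exact Poisson 95% intervals of 1.03 to 1.35 and 0.991 to 1.30 (KO), 1.04 to 1.25 and 1.11 to 1.28 (KD) and 1.02 to 1.25 (control), which cover counting error only. In KO replicate 2 alone the interval reached below 1.

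**Figure D1:**
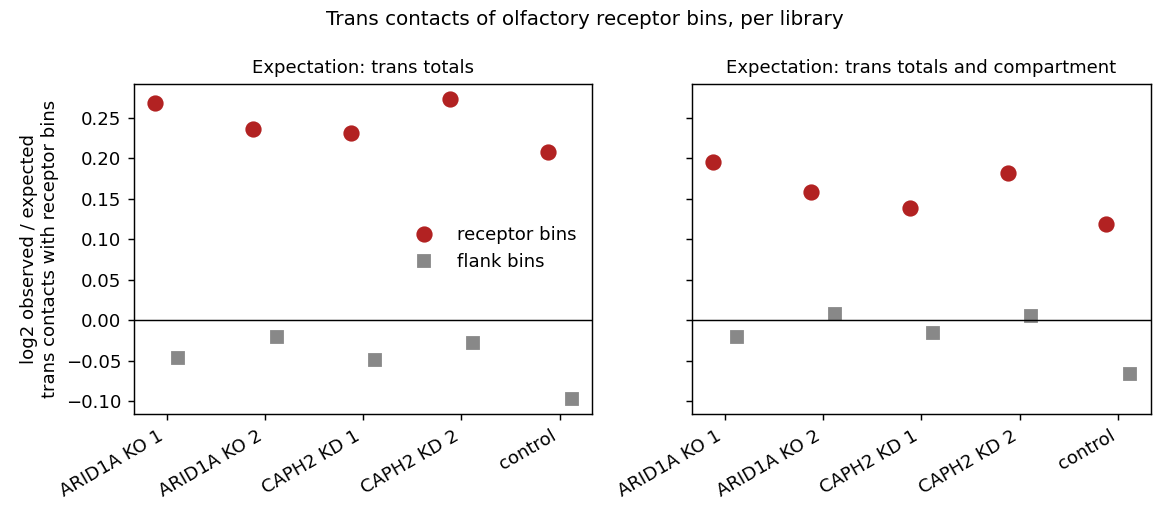
Observed over expected trans contacts with receptor bins (log2, y axis) in each of the 5 libraries (x axis), for the 21 receptor bins (circles) and their flank bins (squares), with the expectation from trans totals on the left and from trans totals and compartment on the right. In both panels the receptor bins lie above the flank bins in all 5 libraries.

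Over all 151 pairs, no group differed from another in this excess by more than its replicates did. Receptor bins minus flanks averaged 0.29 ± 0.042 in KO libraries and 0.29 ± 0.015 in KD libraries (SD, n = 2 each), against 0.31 in the control library. The difference was −0.019 for KO minus control and −0.014 for KD minus control, both within the mean replicate SD of 0.028. These 2 differences share the control library and were set against the replicate spread only. KO minus KD was −0.0048 (exact permutation p = 1, two-sided, smallest possible p 0.333). Without KO replicate 1 KO minus control was −0.048, and without KO replicate 2 it was 0.011. Over the receptor bins outside chromosome 11 alone, with 41 bin pairs, KO minus control was 0.20 and KD minus control 0.26. Both went past the mean replicate SD above, which was measured over all pairs. The set value of those 41 pairs, without flanks subtracted, had an SD of 0.41 between KO libraries and 0.11 between KD libraries (n = 2 each).

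With the expectation from trans totals, the excess was narrow. Averaged over the libraries, the log2 value was 0.24 for the receptor bins themselves, −0.024 for the 22 bins next to them, −0.11 for the bins 2 Mb away and −0.098 for those 3 Mb away. From 4 to 20 Mb the mean stayed between −0.21 and 0.042. In all 5 libraries the receptor bins, at 0.21 or more, stood above every distance from 1 to 20 Mb. The highest single value there was 0.11 (KO replicate 1, 18 Mb). With the compartment also in the expectation (described below), the mean was 0.16 for receptor bins and at most 0.063 from 1 to 20 Mb. The control library then stood at 0.12 for receptor bins, below its 0.15 at 15 Mb. In KO and KD libraries the receptor bins stayed above every other distance. Bins of chromosome 11 take part in 110 of the 151 pairs behind the value at 0 Mb.

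**Figure D2:**
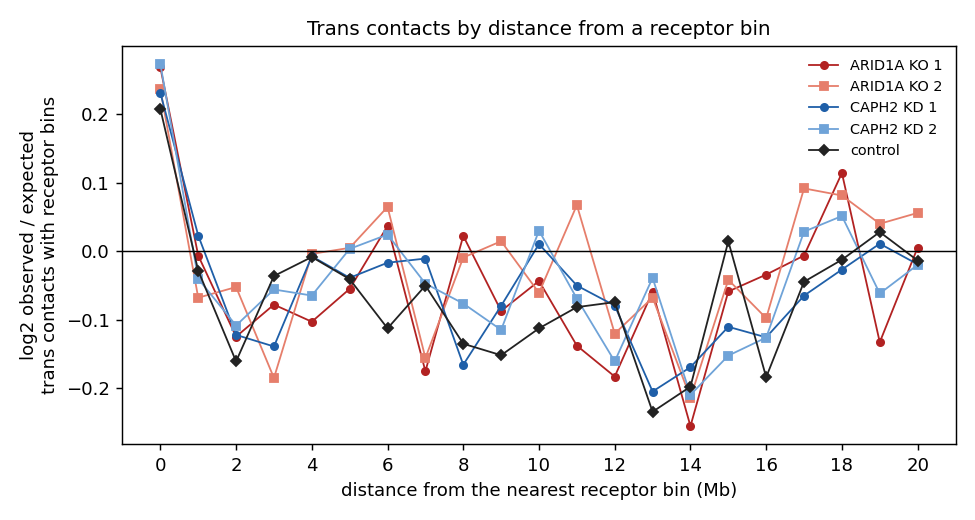
Observed over expected trans contacts with receptor bins (log2, y axis) against the distance of a bin from the nearest receptor bin on its chromosome (Mb, x axis), with 1 line per library. With the expectation from trans totals, the lines peak at a distance of 0 Mb, between 0.21 and 0.27. From 1 Mb on they vary around and below 0.

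Most receptor bins belonged to the B compartment, read from the first eigenvector of each chromosome's contact correlations (SD units, negative for B). Its sign was set in the control by correlation with the trans share of the bins (defined below), and in the other libraries by the control. No measure of gene activity was used to name the sides. The eigenvector was negative in 18 of 21 receptor bins in all 5 libraries, against 58.7% of all autosomal bins and 50.4% of flank bins in the control. The control median was −1.09 over the receptor bins and −0.47 over all bins. The 3 receptor bins of the A side were the 6p22 bin next to the major histocompatibility complex, at 0.42 and 0.86 in KO, 0.30 and 0.36 in KD and 0.42 in control libraries, the 9q33 bin, at 0.77 and 0.83 (KO), 0.92 and 0.87 (KD) and 0.88 (control), and the 17p13 bin, given with the compartment comparisons.

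Receptor bins of the B side met each other at 0.46 and 0.42 (log2) in KO libraries, 0.37 and 0.43 in KD libraries and 0.39 in the control library, over 95 bin pairs. All other B-side bins of the autosomes met each other at 0.16 and 0.18 (KO), 0.21 and 0.21 (KD) and 0.20 (control). The receptor bins were thus higher than B-side bins at large in all 5 libraries, by more than the range over the libraries of either. A-side receptor bins met B-side receptor bins at −0.14 and −0.19 (KO), −0.11 and −0.091 (KD) and −0.21 (control), below expectation in all 5 libraries. When the expectation also took in the compartment (10 classes of the control's eigenvector), the set value of all receptor bins was 0.20 and 0.16 in KO, 0.14 and 0.18 in KD and 0.12 in control libraries. That is a mean of 0.16, against 0.24 without the compartment. Receptor bins minus flanks averaged 0.18 with this expectation (p = 0.0625, exact sign-flip permutation test).

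**Figure D3:**
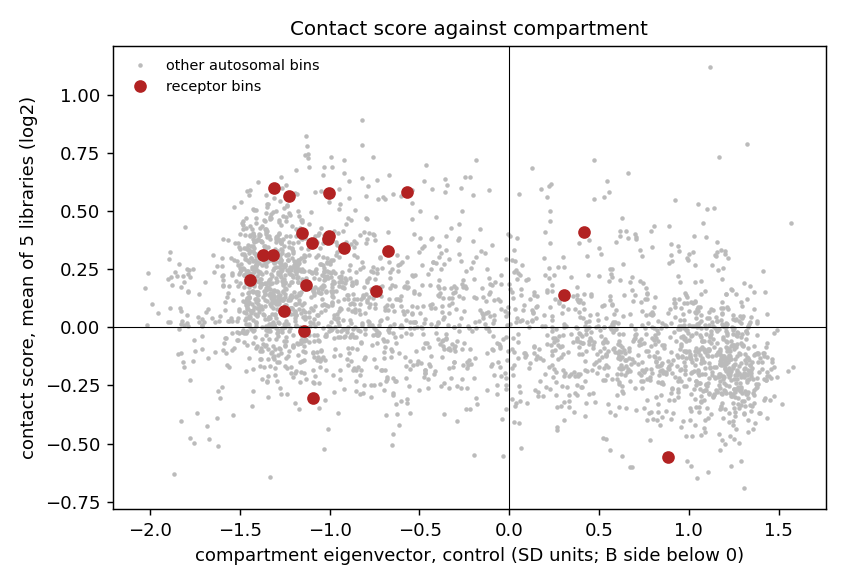
Mean contact score over 5 libraries (log2 observed over expected trans contacts with receptor bins, y axis) against the control's compartment eigenvector (SD units, B side below 0, x axis), for the 21 receptor bins (large points) and the other autosomal bins (small points). Receptor bins crowd the upper left, and the 2 lowest are those of chromosome 9.

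Single bins were described by a contact score, log2 of (observed over expected + 0.05) summed over all receptor bins of other chromosomes. The mean score over the 5 libraries was above 0 in 18 of 21 receptor bins, against 55.1% of all autosomal bins. Its median was 0.33 over the receptor bins, 0.025 over all bins and 0.00091 over the flanks. Among the receptor bins, 8 stood in the top 10% of all bins and 2 in the lowest 10%. Scores were above 0 in all 5 libraries for 8 receptor bins (20.9% of all bins) and below 0 in all 5 for 2 (13.2% of all bins). The receptor bins are both sides of the pairs scored here, so these counts restate the set value bin by bin.

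The highest mean score, 0.60, belonged to the 5 Mb bin of chromosome 11 (chr11:5000001-6000000, 11p15), which holds class I receptors, the family first known from fish, around the beta-globin genes. It scored 1.05 and 0.52 in KO libraries, 0.34 and 0.71 in KD libraries and 0.38 in the control library. The 12q13 bin scored 0.74 and 0.31 (KO), 0.53 and 0.65 (KD) and 0.69 (control). Both were above 0 in every library, and KO replicate 1 was the highest for each.

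The 14q11 bin, home of class II receptors of the OR4 family, scored −0.015 and 0.79 in KO libraries, 0.81 and 0.83 in KD libraries and 0.47 in the control library. The 1q23 bin scored 0.46 and 0.86 (KO), 0.32 and 0.69 (KD) and 0.51 (control). The 14q11 bin was at expectation in KO replicate 1, where it had 28 recovered contacts with receptor bins, and above it in the other libraries. At the other end, the 9q33 bin scored −0.34 and −0.38 (KO), −0.57 and −0.39 (KD) and −1.12 (control). The 9q31 bin scored −0.31 and −0.27 (KO), −0.45 and −0.14 (KD) and −0.36 (control). Both chromosome 9 bins were below expectation in all 5 libraries, and the third lowest, the proximal 1q44 bin, averaged −0.014, with −0.26 and −0.073 (KO), 0.29 and −0.11 (KD) and 0.079 (control).

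Replicates of 1 group differed widely in single receptor bins. The 11 receptor bins of chromosome 11 were scored on 10 partner bins each and the others on 18 to 20, so their scores rest on fewer pairs than those of most bins. The median difference between the 2 KO libraries was 0.40 over the receptor bins and 0.26 over all bins, and between the 2 KD libraries it was 0.30 and 0.16. A receptor bin had a median of 22 and 20 recovered contacts with the other receptor bins in KO libraries, 40 and 59 in KD libraries and 31 in the control library, with the lowest at 4 contacts (55 Mb bin of chromosome 11, KO replicate 1). Over the 21 receptor bins the scores correlated between replicates at Pearson r = 0.24 (KO) and 0.41 (KD), where replicates share the cell line and the set of partners.

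**Figure D4:**
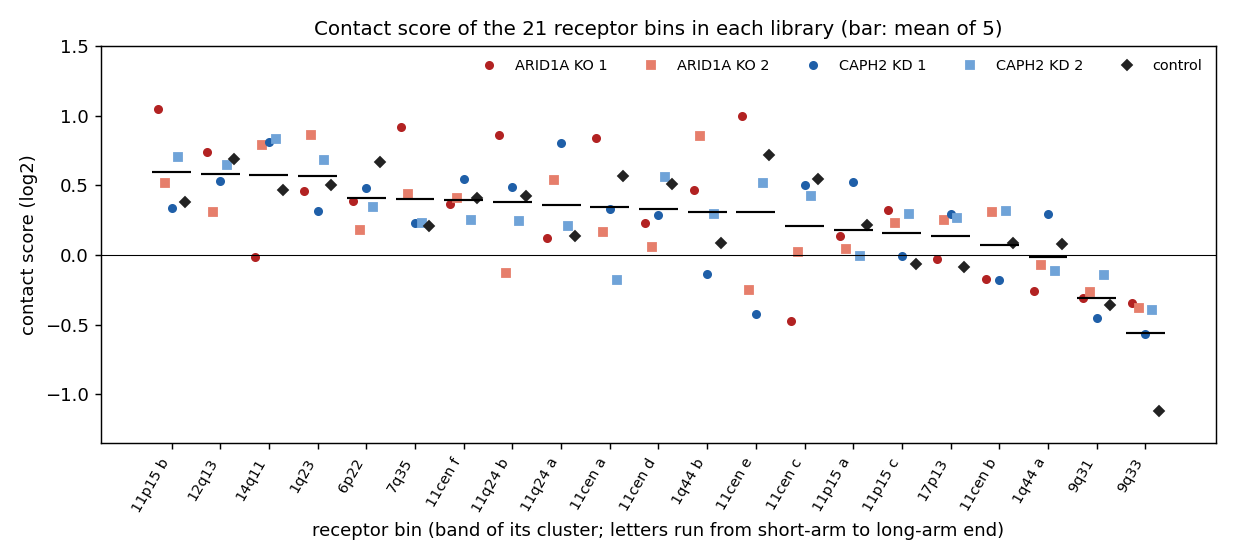
Contact score (log2, y axis) of each of the 21 receptor bins (x axis, by cluster and ordered by mean) in the 5 libraries, with a bar at the mean. Bins of 1 cluster carry letters that run along the chromosome. The 5 Mb bin of 11p15 leads at 0.60, and the 9q31 and 9q33 bins end the order at −0.31 and −0.56.

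Some receptor bins had trans partners with very strong signal. Strong joins, defined as trans bin pairs with a mean observed over expected signal above 10, numbered 1301 over the autosomes and touched 4 receptor bins. The 9q31 bin had 18 of them, all with a stretch of chromosome 3, the 9q33 bin 3 (chromosomes 3 and 5), the 12q13 bin 4 (all with chromosome 13) and the 55 Mb bin of chromosome 11 had 1. Signal within 10 Mb of such joins made up 19.6% of the trans signal of the 9q31 bin, 17.9% of that of the 9q33 bin and 9.82% of that of the 12q13 bin. It enters the trans total that sets the expectation. With those pairs left out of the totals too, an alternative chosen after seeing the data, the mean scores became −0.074 (9q31), −0.37 (9q33) and 0.69 (12q13). The set value became 0.29, receptor bins minus flanks 0.30, and 12 in place of 8 receptor bins stood in the top 10%. Of the 151 receptor pairs, 3 lay near a join, those of 11p15 with 17p13, with at most 2.55 times the expected signal in any library.

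Contacts were spread unevenly over the 61 pairs of clusters on different chromosomes. The mean log2 value over the libraries was above 0 for 25 cluster pairs and below 0 for 36, above 0 in all 5 libraries for 13 and below 0 in all 5 for 5. A library without contact, as 23 of the pairs had, enters that mean at the floor of −4.32 (log2 of the pseudocount). By contacts summed over the libraries, 29 pairs were above expectation and 32 below. Such counts were not made for clusters of other bins. Of the 151 single pairs of receptor bins, 77 and 69 (KO), 78 and 85 (KD) and 72 (control) were above expectation. Of all trans bin pairs, 42.2% to 42.7% were above expectation, depending on the library. Of the 12 clusters, 8 were above 0 in all 5 libraries against all the others and the 2 of chromosome 9 were below 0 in all 5. With the compartment in the expectation, 1q44 averaged −0.066. The 7q35 cluster then stood at −0.026 and −0.034 (KD) and −0.043 (control), and 11cen at −0.030 in KO replicate 2. The rest of the 8 stayed above 0 in every library. The following pairs are the extremes of a ranking by the mean log2 value, so they are a description without a test.

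The 6p22 cluster met the 17p13 cluster at 1.92 and 1.10 (log2) in KO libraries, 1.76 and 1.40 in KD libraries and 2.19 in the control library, on 23 recovered contacts in all, 3.38-fold above expectation (exact Poisson 95% interval 2.15 to 5.08). Both bins are on the A side. The 6p22 cluster met the 12q13 cluster at 0.94 and 0.43 (KO), 1.58 and 1.84 (KD) and 1.74 (control), on 42 contacts, 3.02-fold (2.18 to 4.09). The one of these with the most contacts was 11cen with 14q11, at 0.42 and 1.45 (KO), 1.64 and 1.496 (KD) and 1.35 (control), on 182 contacts, 2.73-fold (2.35 to 3.15). The 1q23 and 11q24 clusters met at 0.47 and 2.01 (KO), 1.54 and 1.04 (KD) and 1.05 (control), on 47 contacts, 2.29-fold (1.68 to 3.05). All 4 pairs were above expectation in every library. The 2 pairs with 6p22 are single bin pairs, with 2 contacts each in KO replicate 2.

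At the other end the 9q31 cluster and the 17p13 cluster shared 2 contacts in the 5 libraries where 7.79 were expected (0.257-fold, 0.0311 to 0.928). The 1q23 and 17p13 clusters shared 2 contacts where 7.06 were expected (0.283-fold, 0.0343 to 1.02), and the 9q31 and 12q13 clusters 8 where 16.0 were expected (0.50-fold, 0.216 to 0.986). These low pairs are single bin pairs and rest on few contacts, with 0 in 3, 3 and 2 of the 5 libraries, so the floor bears on their place. By summed contacts the third lowest was 1q23 with 9q31, also a single bin pair, with 7 contacts where 14.99 were expected (0.467-fold, 0.188 to 0.962). A low pair with more contacts was 9q33 with 11cen, at −0.36 and −0.72 in KO, −1.351 and −0.90 in KD and −1.11 in control libraries on 43 contacts, and these last 2 pairs were picked after their values were seen.

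**Figure D5:**
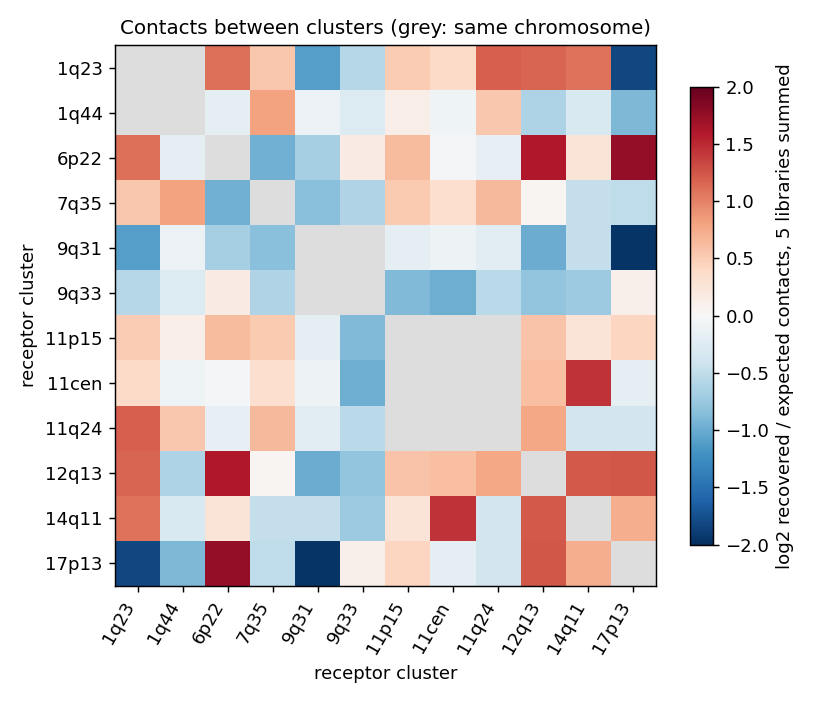
Recovered over expected contacts between receptor clusters, summed over the 5 libraries (log2, colour scale), for each pair of the 12 clusters (both axes), with pairs on 1 chromosome in grey. The 6p22 cluster with 17p13 and 12q13, and 11cen with 14q11, are the strongest pairs, and the row of 9q33 is mostly below 0.

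Left out 1 at a time, an alternative chosen after seeing the data, the clusters moved the mean set value to values between 0.17 (without 14q11) and 0.35 (without 9q33), against 0.24 with all. Without 12q13 it was 0.18, and without the 3 A-side bins it was 0.41. Pairs with chromosome 11 stood at 0.41 and 0.13 in KO libraries, 0.27 and 0.26 in KD libraries and 0.31 in the control library. The 41 pairs without chromosome 11 stood at −0.11 and 0.46 (KO), 0.14 and 0.30 (KD) and −0.069 (control). Outside chromosome 11 the value was thus below 0 in 2 of 5 libraries, and the KO replicates lay on both sides of 0. On chromosome 11 the 11p15 bins (4 to 6 Mb), where the class I receptors lie, stood at 0.49 and 0.21 (KO), 0.24 and 0.30 (KD) and 0.12 (control). The 8 other bins stood at 0.37 and 0.096 (KO), 0.28 and 0.25 (KD) and 0.39 (control). Genes were not assigned to bins, so this is a split by position, and an 11p15 bin may also hold class II receptors.

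Clusters of 1 chromosome were compared with all bin pairs of the same chromosome at the same distance. The 1q23 and 1q44 clusters, 89 to 90 Mb apart, met at 0.64 and 0.95 (log2) in KO libraries, 0.91 and 1.15 in KD libraries and 0.98 in the control library. The 11p15 and 11cen clusters, 42 to 55 Mb apart, met at 0.93 and 0.42 (KO), 0.21 and 0.45 (KD) and 0.43 (control). Both pairs, B side with B side, were above their distance in all 5 libraries. The 9q31 and 9q33 clusters, 18 Mb apart and of opposite compartments, met at −1.20 and −0.70 (KO), −1.63 and −0.98 (KD) and −1.07 (control). The 11p15 and 11q24 clusters met at −0.13 and 0.067 (KO), 0.51 and 0.59 (KD) and 0.42 (control). The 11cen and 11q24 clusters met at 0.53 and −1.04 (KO), −0.35 and −0.20 (KD) and 0.13 (control), on 25 contacts in KO replicate 2. Of the 5 cis pairs, 2 were above and 1 was below the distance average in all libraries.

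Bins outside the receptor clusters can score as high. By mean score the 5 highest at least 5 Mb from any receptor bin were the 43 Mb bin of chromosome 13 (1.12), the 33 Mb bin of chromosome 12 (0.89), the 45 Mb bin of chromosome 5 (0.82), a distal bin of chromosome 5 (chr5:150000001-151000000; 0.79) and the 43 Mb bin of chromosome 8 (0.78). The chromosome 13 bin scored 0.98 and 1.49 in KO libraries, 1.03 and 0.95 in KD libraries and 1.14 in the control library. The chromosome 12 bin scored 1.34 and 0.51 (KO), 0.81 and 0.96 (KD) and 0.84 (control), and the 45 Mb bin of chromosome 5 scored 0.82 and 0.87 (KO), 0.82 and 0.77 (KD) and 0.83 (control). The distal bin of chromosome 5 scored 0.70 and 0.74 (KO), 0.64 and 0.88 (KD) and 0.99 (control), and the chromosome 8 bin 0.30 and 1.39 (KO), 1.02 and 0.72 (KD) and 0.48 (control). All 5 bins were above 0 in every library. The control eigenvector was 1.12 in the chromosome 13 bin and 1.32 in the distal bin of chromosome 5, both on the A side. In the chromosome 8 bin it was −0.82. With strong joins left out of the pairs, the chromosome 13 bin, which has a strong join with the 12q13 bin, stood at −0.26, the distal bin of chromosome 5 at −0.17 and the chromosome 8 bin at −0.28. The chromosome 12 bin at 33 Mb and the chromosome 5 bin at 45 Mb stood at 0.89 and 0.89 without joins, in the B compartment like most receptor bins (control eigenvector −0.82 and −1.13). Both stood above the highest receptor bin, at 0.60.

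No receptor bin had a contact score that passed the test between groups. In limma fits across 2635 bins, 0 of 21 receptor bins passed an adjusted p of 0.05 in any of the 3 comparisons, and 0% of all bins did. Without adjustment, KO against control had 2 receptor bins under a p of 0.05 (5.54% of all bins), KD against control 1 (2.47%) and KO against KD 2 (6.07%). Both KO libraries were above the control in 7 receptor bins (31% of all bins) and below it in 5 (30.5%). Both KD libraries were above the control in 6 (35.6%) and below it in 5 (35.4%). Between the KO and KD libraries, 3 receptor bins were higher in KO without overlap (18.3%) and 4 lower (17.4%). Both comparisons with the control use the same single control library, which is taken to vary as the KO and KD libraries do.

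The receptor bins with the smallest p had the following values. The 9q33 bin, given above, was 0.75 ± 0.26 (SE) higher in KO than in control libraries and 0.64 ± 0.26 higher in KD than in control (limma adjusted p = 0.831 and 0.999), with the control library lowest at 24 contacts with receptor bins where 56.3 were expected. The 56 Mb bin of chromosome 11 scored −0.47 and 0.023 in KO libraries, 0.50 and 0.42 in KD libraries and 0.55 in the control library, and KO was −0.77 ± 0.27 against control and −0.69 ± 0.22 against KD (limma adjusted p = 0.831 and 0.651). The distal 1q44 bin scored 0.47 and 0.85 (KO), −0.14 and 0.29 (KD) and 0.084 (control), a difference of 0.57 ± 0.28 for KO minus control and 0.58 ± 0.23 for KO minus KD (limma adjusted p = 0.861 and 0.803). In the last 2 bins the KO libraries lay outside the range of the others.

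The 7q35 bin scored 0.92 and 0.44 in KO libraries, 0.23 and 0.23 in KD libraries and 0.21 in the control library, 0.45 ± 0.22 higher in KO than in KD (limma adjusted p = 0.806). The 58 Mb bin of chromosome 11 scored 0.996 and −0.25 (KO), −0.42 and 0.51 (KD) and 0.72 (control). The 48 Mb bin of chromosome 11 scored 0.84 and 0.16 (KO), 0.33 and −0.18 (KD) and 0.56 (control). In those chromosome 11 bins KD minus control was −0.67 ± 0.38 and −0.49 ± 0.30 (limma adjusted p = 0.999 for each), and replicates of 1 group differed by more than that or by about as much. Leaving out KO replicate 1, KO against control had 2 receptor bins past the adjusted threshold (3.83% of all bins) and KO against KD had 1 (4.71%). Leaving out KO replicate 2, it was 2 (3.26%) and 5 (4.86%). In those fits the spread comes from the 2 KD libraries alone, and a lone KO library is assumed to vary like them.

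The trans share of contacts was higher in both CAPH2 KD libraries than in the control in every receptor bin, as in nearly all bins. The trans share is log2 of a bin's trans signal over its cis signal outside the bin. Its median over the receptor bins was −0.49 and −0.35 in KO libraries, −0.30 and −0.26 in KD libraries and −0.41 in the control library, against −0.60 and −0.47 (KO), −0.40 and −0.39 (KD) and −0.56 (control) over all bins. Both KD libraries were above the control in all 21 receptor bins, where 99.4% of all bins were too, and the median difference was 0.23 over the receptor bins and 0.16 over all bins. Both KO libraries were above the control in 7 receptor bins (38.3% of all bins) and below it in 3 (19.8%). KD libraries were below it in 0 (0.19%). KO libraries were below the KD libraries without overlap in 14 receptor bins (64.8%) and above them in 0 (3.49%). None of these passed the limma test at an adjusted p of 0.05 (0 of 21 receptor bins, 0% of all bins in each comparison). Unadjusted, KO against control had 0 receptor bins under 0.05 (6.76% of all bins), KD against control 5 (21.3%) and KO against KD 6 (31.9%).

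The 14q11 bin had the highest trans share of the receptor bins, 0.59 and 0.70 in KO libraries, 0.90 and 0.87 in KD libraries and 0.48 in the control library. Its difference was 0.41 ± 0.073 (SE) for KD minus control, 0.17 ± 0.073 for KO minus control and −0.24 ± 0.059 for KO minus KD (limma adjusted p = 0.214, 0.695 and 0.103). The 6p22 bin had 0.060 and 0.11 (KO), 0.21 and 0.18 (KD) and −0.033 (control), or 0.23 ± 0.057 for KD minus control and 0.12 ± 0.057 for KO minus control (limma adjusted p = 0.214 and 0.705). In both bins all KO and KD libraries lay above the control library.

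The 1q23 bin had a trans share of −0.80 and −0.71 in KO libraries, −0.44 and −0.42 in KD libraries and −0.68 in the control library, with KO minus KD at −0.32 ± 0.053 (limma adjusted p = 0.0799) and KD minus control at 0.25 ± 0.065 (0.214). The distal 11q24 bin had −1.34 and −1.11 (KO), −0.89 and −0.87 (KD) and −1.05 (control), with KO minus KD at −0.35 ± 0.092 (limma adjusted p = 0.106). The distal 1q44 bin had −0.28 and −0.32 (KO), −0.15 and −0.17 (KD) and −0.21 (control), with KO minus control at −0.092 ± 0.055 (limma adjusted p = 0.714). In those bins the KO libraries were lowest. The calls turned on the KO pair: without KO replicate 1 or 2, 21 receptor bins passed for KD against control (97% of all bins each). For KO against control, 16 passed without KO replicate 1 (71.1%) and 11 without KO replicate 2 (55%). For KO against KD it was 18 (71.2%) and 20 (88.5%).

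In most receptor bins, and in most bins at large, local contacts took a higher share in either KO library than in the control. The local contact share is log2 of the signal with bins 1 to 4 Mb away over all cis signal outside the bin. Its median over the receptor bins was −0.72 and −0.64 in KO libraries, −0.76 and −0.78 in KD libraries and −0.81 in the control library, against −0.66 and −0.61 (KO), −0.65 and −0.65 (KD) and −0.69 (control) over all bins. Both KO libraries were above the control in 18 receptor bins (72.9% of all bins) and below it in 0 (4.74%). Both KD libraries were above it in 18 (88.3%) and below it in 3 (4.9%). KO libraries were above KD libraries without overlap in 8 (38.4%) and below them in 2 (13.7%). The median difference for KO minus control was 0.13 over the receptor bins and 0.056 over all bins. It was 0.17 and 0.075 without KO replicate 1 and 0.054 and 0.032 without KO replicate 2. No receptor bin and 0% of all bins passed limma at an adjusted p of 0.05 in any comparison. Unadjusted, KO against control had 6 receptor bins under 0.05 (24.9% of all bins), KD against control 1 (3.95%) and KO against KD 6 (15.6%).

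The 14q11 bin had a local share of −0.76 and −0.71 in KO libraries, −0.81 and −0.79 in KD libraries and −0.89 in the control library, so KO minus control was 0.16 ± 0.033 (SE) and KD minus control 0.095 ± 0.033 (limma adjusted p = 0.167 and 0.631). The 1q23 bin had −0.67 and −0.70 (KO), −0.79 and −0.82 (KD) and −0.82 (control), with KO minus control at 0.13 ± 0.028 and KO minus KD at 0.12 ± 0.023 (limma adjusted p = 0.167 and 0.272). The 6p22 bin had −0.76 and −0.70 (KO), −0.84 and −0.83 (KD) and −0.86 (control), with KO minus control at 0.13 ± 0.033 (limma adjusted p = 0.167). In all 3 bins the KO libraries stood above every other library.

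At 1q44, the proximal bin had −1.09 and −0.995 in KO libraries, −1.24 and −1.26 in KD libraries and −1.19 in the control library, with KO minus KD at 0.21 ± 0.037 (limma adjusted p = 0.272). The distal bin, close to the end of the long arm, had −1.48 and −1.345 (KO), −1.66 and −1.66 (KD) and −1.55 (control), with KO minus KD at 0.25 ± 0.047 and KD minus control at −0.12 ± 0.057 (limma adjusted p = 0.272 and 0.631). Both bins were highest in KO and lowest in KD libraries. The 12q13 bin had −0.85 and −0.80 (KO), −0.76 and −0.78 (KD) and −0.83 (control), with KD minus control at 0.061 ± 0.033 (limma adjusted p = 0.631). Without KO replicate 1, 17 receptor bins passed for KO against control (84.4% of all bins), 14 for KD against control (65.3%) and 16 for KO against KD (68.3%). Without KO replicate 2, it was 14 (57.8%), 14 (65.3%) and 11 (59.8%). Without either KD library, 1 passed for KO against control (0.304%).

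The compartment of the receptor bins kept its side in all libraries, and the largest difference from the control was that of the 14q11 bin in KO cells. Its eigenvector was −0.26 and −0.40 in KO libraries, −0.79 and −0.89 in KD libraries and −1.002 in the control library. KO minus control was 0.67 ± 0.11 (SE) and KO minus KD 0.51 ± 0.092 (limma adjusted p = 0.861 and 0.389). No receptor bin and 0% of all bins passed at 0.05. Unadjusted, KO against control had 1 receptor bin under 0.05 (5.65% of all bins), KD against control 0 (1.75%) and KO against KD 1 (10.9%). The median difference for KO minus control had no settled direction. It was 0.12 over the receptor bins and 0.054 over all bins with all libraries, and −0.022 and 0.035 without KO replicate 2. On the contacts recovered before balancing it was −0.43 and 0.57. There 9 of 21 receptor bins were higher in KO, against 82.7% of all bins. The cause was not tested. KO libraries were both above the control in 8 receptor bins (38.9% of all bins) and below it in 2 (19.4%). KD libraries were above the control in 10 (42.8%) and below it in 6 (36.8%), and KO libraries above KD libraries without overlap in 7 (33.1%) and below them in 5 (16.3%).

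The 57 Mb bin of chromosome 11 stood at −0.48 and −0.27 in KO libraries, −0.53 and −0.54 in KD libraries and −0.68 in the control library. The 9q31 bin stood at −0.99 and −0.83 (KO), −1.13 and −1.15 (KD) and −1.09 (control), and the 5 Mb bin of chromosome 11 at −1.05 and −1.24 (KO), −1.38 and −1.46 (KD) and −1.31 (control). In all 3 bins the KO libraries were closer to 0 than the KD libraries. The 17p13 bin stood at 0.21 and 0.61 (KO), 0.80 and 0.68 (KD) and 0.30 (control), and the 7q35 bin at −1.21 and −0.91 (KO), −0.95 and −0.84 (KD) and −1.16 (control), with KD minus control at 0.44 ± 0.21 and 0.26 ± 0.17 (limma adjusted p = 0.999 for each). Without KO replicate 1, KO against control had 8 receptor bins past the adjusted threshold (19.6% of all bins) and KO against KD 11 (27.1%). Without KO replicate 2, it was 4 (33.5%) and 6 (44.4%).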

How the data were processed

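The values are a balanced contact signal for pairs of 1 Mb bins, deposited by the authors as 1 matrix per library, with bins named by hg19 position per the file headers. Alignment used Bowtie2 and hg19, per the submitters' processing notes, with the aligner version, read filters, binning and balancing program not given in the sources used here. Row sums were within 0.1% of their median for 94.9% to 96.5% of bins. Dividing each value by the factors of its 2 bins gave back contacts that were whole within 0.05 for 98.0% to 99.1% of values above 0. These recovered contacts give counts and intervals, and all other values use the deposited signal.

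Of 2667 autosomal bins with values in all libraries, 32 under 0.25 of the control's median recovered total were left out. Strong joins were left out only where stated. The contact score carried a pseudocount of 0.05. The 4 measures (contact score, trans share, local share, eigenvector) were each fitted over 2635 bins and all 5 libraries in limma 3.58.1 (R 4.3.3), with Benjamini-Hochberg adjustment and a threshold of 0.05, and the code was checked on simulated data. Contacts were summed in Python 3.11.15 (numpy 2.4.6, pandas 2.3.3) and tested with scipy 1.17.1. Named with values in each library were the 3 receptor bins with the smallest p per comparison. So were the 4 highest and 3 lowest bins by mean score, the 4 highest and 3 lowest cluster pairs and all cluster pairs within a chromosome. The 5 other bins named were those with the highest mean score at least 5 Mb from any receptor bin. The bins, lists and rules were chosen with earlier results of these data known. Alternatives changed the expectation, pseudocount, filter, flanks, joins, libraries and pairing. Genes were not assigned to hg19 bins by coordinate, since the annotation used was GRCh38.p14.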

Additional observations from a re-analysis of the deposited data

How the results depend on the processing

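The excess of receptor bins over flanks, a mean of 0.29 (log2) over the 5 libraries, was 0.18 with the compartment in the expectation and 0.25 against all other autosomal bins, both with p = 0.0625 in the exact sign-flip permutation test, and 0.22 without the bins of chromosome 11 (p = 0.1875). Leaving out 1 library gave 0.286 to 0.301 for the mean, −0.048 to 0.011 for KO minus control and −0.034 to 0.025 for KO minus KD. KO minus control (−0.019) was 0.20 without chromosome 11, 0.010 with flanks 10 to 20 Mb away and 0.046 against all other bins. KD minus control (−0.014) was 0.26, 0.030 and 0.045 in those 3 settings, and KO minus KD (−0.0048) was −0.060 without chromosome 11. The cause was not tested.

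The counts of receptor bins past an adjusted p of 0.05, 0 in all 12 limma fits, depended on the KO pair. Leaving out 1 library gave 0 to 2 for the contact score of KO against control (up to 3.83% of all bins) and 0 to 5 for KO against KD (up to 4.86%). For the trans share it gave 0 to 16 (KO against control, up to 71.1% of all bins), 0 to 21 (KD against control, up to 97%) and 0 to 20 (KO against KD, up to 88.5%). For the local share it gave 1 to 17 (up to 84.4%), 0 to 14 (up to 65.3%) and 0 to 16 (up to 68.3%) in the same comparisons, and for the eigenvector 0 to 8 (KO against control, up to 33.5%) and 0 to 11 (KO against KD, up to 44.4%). On recovered contacts before balancing the eigenvector gave 8 receptor bins for KO against control (30.6% of all bins). It also gave 8 for KO against KD (43.1%). Each time 5 of the 8 were lower in KO. Among all bins called, 187 of 805 (KO against control) and 234 of 1135 (KO against KD) were lower in KO.

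Replicate numbers do not pair the libraries: deviations of KO and KD libraries with the same number correlated at −0.022 (score) and 0.023 (trans share). With the number as a replicate block, the local share gave 1 receptor bin for KO against control (0.911% of all bins) and 3 for KO against KD (1.59%), and the other counts stayed at 0. Over all bins the block called 1 (local share, KD against control), 5 (score, KO against control) and 7 (score, KO against KD). The score also called 1 bin with no filter (KO against control), 16 with only the libraries of the groups compared (KD against control), and 2 with the mean of the chromosome pair as expectation (KO against KD). Of 142 alternative values, 102 moved by less than the replicate SD or kept their count within 1.5 times.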
